A study of Mus musculus with 18 samples.

Results

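The 8 genes described here encode transporters of the ATP-binding cassette (ABC) family that, apart from Abcb4, move drugs and drug conjugates out of cells. They were taken by their symbols (Abcb1a, Abcb1b, Abcb4, Abcg2, Abcc1, Abcc3, Abcc4 and Abcc5) from the 24421 genes of the count table, where all 8 were found. They were measured by RNA sequencing in 4T1, a mouse mammary carcinoma cell line, and in 4T1R1 and 4T1R2, populations selected independently from 4T1 by repeated exposure to 17-DMAG. 17-DMAG is a geldanamycin derivative that inhibits the chaperone Hsp90. The populations 4T1, 4T1R1 and 4T1R2 were each sequenced untreated and exposed to 1.5 µM 17-DMAG, with 3 biological replicates in each of the 6 groups. The exposure is given as 48 h by the sample labels and as 2 h by the description of the series, and the conditions of selection also differ between these sources. 4T1R1 and 4T1R2 are whole selected populations, not clones.

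ABC exporters bind and hydrolyse ATP at a pair of cytoplasmic nucleotide-binding domains, and the energy drives substrate across the membrane. P-glycoprotein, the best-known drug exporter, is encoded by a single gene in humans and by both Abcb1a and Abcb1b in mice, while the neighbouring Abcb4 encodes a phosphatidylcholine translocator known from the bile canaliculus. Abcg2 encodes the breast cancer resistance protein, a half-transporter that works as a dimer or larger complex, and the Abcc genes encode multidrug resistance-associated proteins, which export organic anions and conjugates.

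Library totals ran from 23354461 to 55094630 counts. Replicates 1 and 2 of treated 4T1 were closer to each other than any other pair of replicates (chi-square per gene 1.099, against 2.042 to 2.219 in the 17 other pairs). They were averaged and counted as 1 sample, so n = 2 in that group and n = 3 in the others. Between 65.6% and 70.8% of counts from 1 to 12 were even in a library, so a count appears to be a read rather than a read pair, and counting intervals would be too narrow. The chi-square took each count as a separate read, so the values of the 17 other pairs do not show spread beyond sampling noise. The epithelial markers Epcam, Krt8, Krt18, Krt19, Cdh1 and Krt14 summed to 1380 to 2030 CPM (normalized counts per megaread) in every library. The leukocyte markers summed to 4.35 to 7.18 and the endothelial markers to 0.0614 to 0.566, with Cdh5 and Kdr at 0 in some libraries. The fibroblast list summed to 12.9 to 33.7, nearly all of it Pdgfra, with Col1a1, Col1a2, Pdgfrb and Dcn each below 1. The library identifiers of 4T1R1 in the sample labels form a series of their own, so effects of 4T1R1 and of that series cannot be told apart.

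Levels are given as CPM, normalized counts per megaread, with each library total corrected by its TMM factor. Differences are log2 fold changes (log2FC) with their standard errors (SE), and P-values are from edgeR's quasi-likelihood test, adjusted over the 13507 genes tested.

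Abcb1a, Abcb1b and Abcb4 lie next to each other on the plus strand of chromosome 5 in the GRCm38 assembly. Abcb1a spans 8660077 to 8748575, Abcb1b 8798147 to 8866315 and Abcb4 8893717 to 8959231, a run of 299.2 kb. The other members lie apart from them, with Abcg2 on chromosome 6, Abcc3 on 11 and Abcc4 on 14, and with Abcc1 and Abcc5 both on 16. The 250 bases before the RefSeq start sites of the chromosome 5 genes are shown because these genes had the largest changes among the members and changed together between untreated populations. Sequences are from RefSeq (GRCm38.p6), 5′ to 3′, and capitals mark CCAAT boxes (CCAAT or its complement ATTGG) and GC boxes (GGGCGG or CCGCCC).

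Abcb1a (chr5:8566841-8567090, + strand): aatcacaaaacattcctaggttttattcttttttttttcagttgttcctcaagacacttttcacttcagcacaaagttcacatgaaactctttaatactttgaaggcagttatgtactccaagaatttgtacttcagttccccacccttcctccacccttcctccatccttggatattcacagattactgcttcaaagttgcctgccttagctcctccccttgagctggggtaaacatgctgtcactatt

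Abcb1b (chr5:8797897-8798146, + strand): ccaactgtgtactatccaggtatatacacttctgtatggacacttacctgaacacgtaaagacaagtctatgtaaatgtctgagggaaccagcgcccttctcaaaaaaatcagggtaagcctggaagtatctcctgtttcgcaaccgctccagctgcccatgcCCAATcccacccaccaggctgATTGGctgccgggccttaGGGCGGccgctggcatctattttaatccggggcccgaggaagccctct

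Abcb4 (chr5:8893471-8893720, + strand): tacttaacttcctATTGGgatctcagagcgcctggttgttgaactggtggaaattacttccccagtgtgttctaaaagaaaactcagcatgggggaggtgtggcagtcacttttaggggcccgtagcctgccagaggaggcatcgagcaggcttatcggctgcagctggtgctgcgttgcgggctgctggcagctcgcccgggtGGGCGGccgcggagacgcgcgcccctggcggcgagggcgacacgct

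Abcb1b had CCAAT boxes 87 and 66 bases before its start, the latter as ATTGG, and a GC box 48 bases before it. Abcb4 had a CCAAT box at 237 bases and a GC box at 46 bases, and the Abcb1a window held neither. Of all 32851 mouse windows of this length, 33.8% held a CCAAT box and 32.7% a GC box on either strand. Heat shock element pairs (GAANNTTC, in 6.7% of windows), AP-1 sites (TGANTCA, 6.7%), TATA boxes (TATAAA, 12.4%) and E-boxes (CACGTG, 6.0%) were not matched in any of the 3 windows. The RefSeq start of Abcb1a lies 92986 bases upstream of its start in the GENCODE vM21 annotation, inside the span of Rundc3b on the other strand, so the Abcb1a window depends on the annotation. Of the 8 members, 6 were matched to RefSeq windows. Among the others, an Abcc5 window held 1 heat shock element pair 164 bases before the start, and an Abcc4 window held an E-box 205 bases before its start.

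The transcripts of these neighbours, compared over their whole length, resemble each other. Annotated transcripts of Abcb1a and Abcb1b were 87.0% identical where aligned, and 15.52% of the 50-base windows of Abcb1a were found unchanged in Abcb1b. The longest stretch common to both was 338 bases. A part of it in the first nucleotide-binding domain is printed here because reads from such stretches cannot be assigned to either gene by sequence, with the ABC signature motif and the end of the Walker B motif in capitals.

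Abcb1a and Abcb1b: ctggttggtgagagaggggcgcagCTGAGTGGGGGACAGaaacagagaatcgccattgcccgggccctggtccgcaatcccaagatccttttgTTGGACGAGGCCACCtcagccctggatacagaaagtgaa

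Abcb4 was more distant, with 2.57% of the 50-base windows of Abcb1a and 1.55% of those of Abcb1b found in it. How reads matching several genes were counted is not given in the sources used here, so the values of Abcb1a and Abcb4 are uncertain to that extent, and the part of Abcb1b reads in them was not tested. Normalized Abcb1a counts were 1.01% to 1.29% of those of Abcb1b in the untreated libraries of both selected populations and 0.246% to 0.628% in untreated 4T1. The antisense gene Gm5106 overlaps the start of Abcb1b but has no row in the count table, and whether strand was used in counting is not given in the sources used here. Abcc4 spans the counted microRNA gene Mir6391.

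The first question was whether the selected populations carried more efflux transporter RNA before any new exposure. Transcripts of the P-glycoprotein genes and of Abcb4 were many times higher in 4T1R1 than in 4T1 and higher again in 4T1R2, whereas the 5 members on other chromosomes differed by less than 2-fold. In bulk RNA, a larger share of expressing cells and more RNA per cell cannot be told apart. The called members were 6 of 8 in 4T1R1 and 8 of 8 in 4T1R2, all of them higher. Of all genes tested, 52.7% were called in 4T1R1 and 52.4% in 4T1R2, so a call alone says little here. The median log2FC of the members was 0.82 in 4T1R1 and 0.51 in 4T1R2, against 0.01 for all genes in both comparisons. These counts and medians include Abcb4, which passed the expression filter only through the selected populations.

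Abcb1b was the more abundant of the P-glycoprotein transcripts, also per kilobase of exon. Its levels were 108.6, 109.9 and 113.2 in the untreated 4T1 libraries, 764.3, 746.9 and 771.6 in 4T1R1, and 2105.3, 2113.3 and 2157.9 in 4T1R2. The populations did not overlap, and each set of replicates was tight. Abcb1b was 6.88-fold higher in 4T1R1 than in 4T1 (log2FC 2.78, SE 0.0266, adjusted P = 1.22e-45) and 19.2-fold higher in 4T1R2 (log2FC 4.26, SE 0.0277, adjusted P = 3.35e-52). In both comparisons it had the smallest P-value of all genes tested, while 185 genes in 4T1R1 and 64 in 4T1R2 had a larger log2FC. 4T1R2 stood 2.79-fold above 4T1R1 (log2FC 1.48, SE 0.024, adjusted P = 3.76e-37).

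Abcb1a followed at a far lower level. It had 8, 20 and 20 counts in the untreated 4T1 libraries, 252, 241 and 261 in 4T1R1, and 806, 635 and 736 in 4T1R2. These correspond to 0.268, 0.69 and 0.63 CPM in 4T1, 7.93, 8.12 and 7.83 in 4T1R1, and 25.0, 26.7 and 27.8 in 4T1R2. The groups did not overlap, and the first 4T1 library was the lowest of all. The increase was 14.9-fold in 4T1R1 (log2FC 3.90, SE 0.184, adjusted P = 3.4e-21) and 49.6-fold in 4T1R2 (log2FC 5.63, SE 0.158, adjusted P = 5.51e-29).

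Abcb4 was barely detected in 4T1, with 6, 2 and 0 counts in the untreated libraries. It had 64, 73 and 90 counts in 4T1R1 and 220, 186 and 221 in 4T1R2. None of the 4T1 libraries reached the minimum of the expression filter, so Abcb4 was tested only because of its level in the selected populations, and its inclusion is not evidence of a change. The fitted log2FC was 4.70 in 4T1R1 (95% interval 3.92 to 5.47, adjusted P = 1.09e-13) and 6.37 in 4T1R2 (95% interval 5.72 to 7.02, adjusted P = 2.77e-20), and these sizes depend on 8 counts in all of untreated 4T1. Between the selected populations, where the counts were higher, Abcb4 was 3.19-fold and Abcb1a 3.33-fold higher in 4T1R2 than in 4T1R1 (adjusted P = 5.24e-10 and 9.41e-18).

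**Figure D1:**
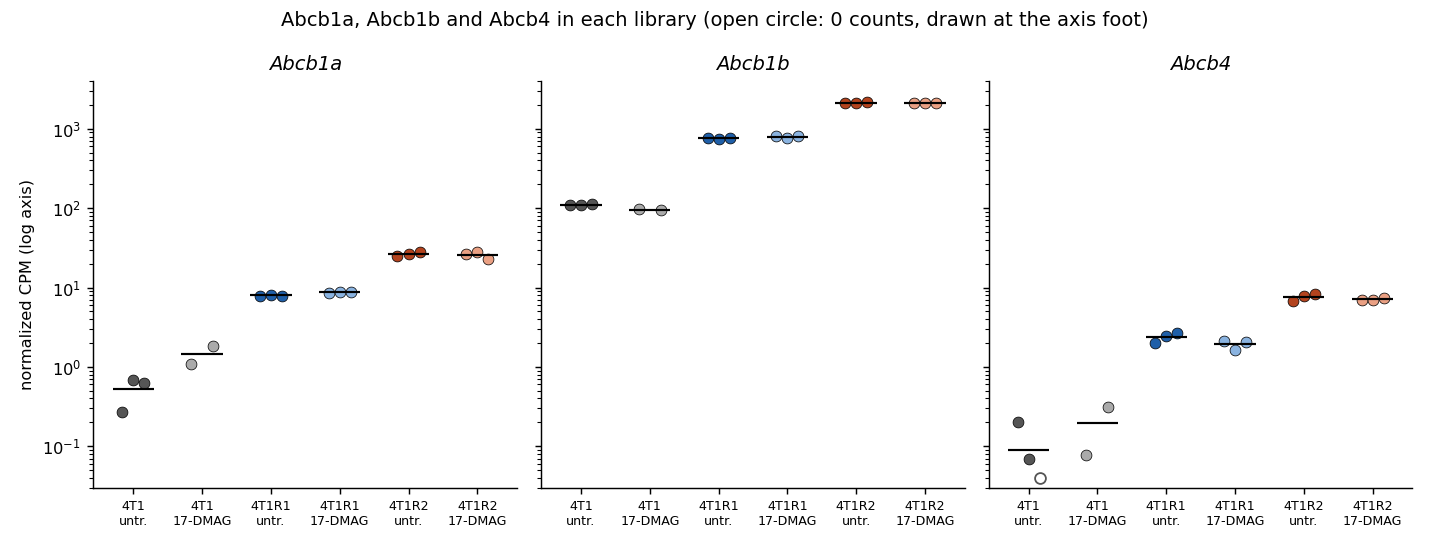
CPM (log axis) of Abcb1a, Abcb1b and Abcb4 in each library of the 6 groups, with lines at group means and an open circle for the library with 0 counts of Abcb4. In each gene the 4T1, 4T1R1 and 4T1R2 libraries form separate steps, with 4T1 lowest and 4T1R2 highest.

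The counted protein-coding genes on either side of the run were also higher in the selected populations. Slc25a40 and Rundc3b before Abcb1a had log2FC of 2.18 and 3.27 in 4T1R1 and of 3.76 and 5.06 in 4T1R2, and Crot and Tmem243 after Abcb4 had 2.95 and 3.56 in 4T1R1 and 4.54 and 5.18 in 4T1R2.

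Abcg2 and Abcc3 were raised to a smaller extent. Abcg2 levels were 7.83, 6.76 and 6.77 in untreated 4T1, 10.8, 11.8 and 12.1 in 4T1R1, and 9.57, 10.6 and 9.67 in 4T1R2. All libraries of the selected populations were above those of 4T1. The gain was 1.62-fold in 4T1R1 (log2FC 0.70, SE 0.103, adjusted P = 2.45e-07) and 1.39-fold in 4T1R2 (log2FC 0.48, SE 0.106, adjusted P = 2e-04). The selected populations differed from each other in Abcg2 by a log2FC of −0.22 (4T1R2 over 4T1R1, 95% interval −0.42 to −0.018, adjusted P = 0.0791), which missed the threshold.

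Abcc3, which encodes a basolateral exporter of glucuronide conjugates and bile salts, had levels of 13.4, 12.7 and 10.9 in untreated 4T1. They were 22.3, 24.3 and 24.1 in 4T1R1 and 17.6, 17.1 and 18.9 in 4T1R2. The populations did not overlap. Abcc3 was 1.91-fold higher in 4T1R1 (log2FC 0.93, SE 0.0823, adjusted P = 9.29e-13) and 1.45-fold higher in 4T1R2 (log2FC 0.54, SE 0.0854, adjusted P = 1.11e-06), and 4T1R2 was below 4T1R1 (log2FC −0.40, SE 0.0798, adjusted P = 8.84e-05).

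Abcc1, Abcc4 and Abcc5 differed by at most 1.21-fold. Abcc1, which encodes an exporter of glutathione conjugates, ranged from 186.0 to 194.4 in untreated 4T1, from 191.3 to 199.2 in 4T1R1 and from 200.2 to 206.2 in 4T1R2. It was 1.07-fold higher in 4T1R2 (log2FC 0.09, SE 0.0302, adjusted P = 0.0097), a call lost without untreated 4T1 replicate 1 (log2FC 0.07, adjusted P = 0.0631), and its log2FC in 4T1R1 was 0.03 (95% interval −0.026 to 0.095, adjusted P = 0.351). Abcc4, which encodes an exporter of cyclic nucleotides and prostaglandins, ranged from 76.7 to 83.0 in 4T1, from 80.4 to 86.0 in 4T1R1 and from 92.9 to 98.2 in 4T1R2. It was 1.2-fold higher in 4T1R2 (log2FC 0.26, SE 0.0427, adjusted P = 1.78e-06), with no overlap of libraries, and overlapped 4T1 in 4T1R1 (log2FC 0.05, 95% interval −0.035 to 0.14, adjusted P = 0.328). Abcc5, which also encodes an exporter of cyclic nucleotides, ranged from 42.7 to 45.5 in 4T1, from 48.0 to 48.5 in 4T1R1 and from 49.9 to 56.0 in 4T1R2. Its gains were 1.09-fold in 4T1R1 (log2FC 0.13, SE 0.0475, adjusted P = 0.0234) and 1.21-fold in 4T1R2 (log2FC 0.27, SE 0.0477, adjusted P = 6.45e-06). The first of these calls was lost without untreated 4T1R1 replicate 1 (adjusted P = 0.0543) or untreated 4T1 replicate 1 (adjusted P = 0.106).

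Directly between the untreated selected populations, 6 of 8 members were called, against 38.8% of all genes tested. Abcb1a, Abcb1b, Abcb4, Abcc4 and Abcc5 were higher in 4T1R2 and Abcc3 was lower. Abcc4 and Abcc5 differed by log2FC of 0.21 and 0.14 (SE 0.0425 and 0.0471, adjusted P = 9.72e-05 and 0.0128). Without untreated 4T1R2 replicate 3 the Abcc5 difference was 0.11 and no longer called (adjusted P = 0.109). Abcc1 had a log2FC of 0.06 (95% interval −0.0034 to 0.12, adjusted P = 0.132).

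**Figure D2:**
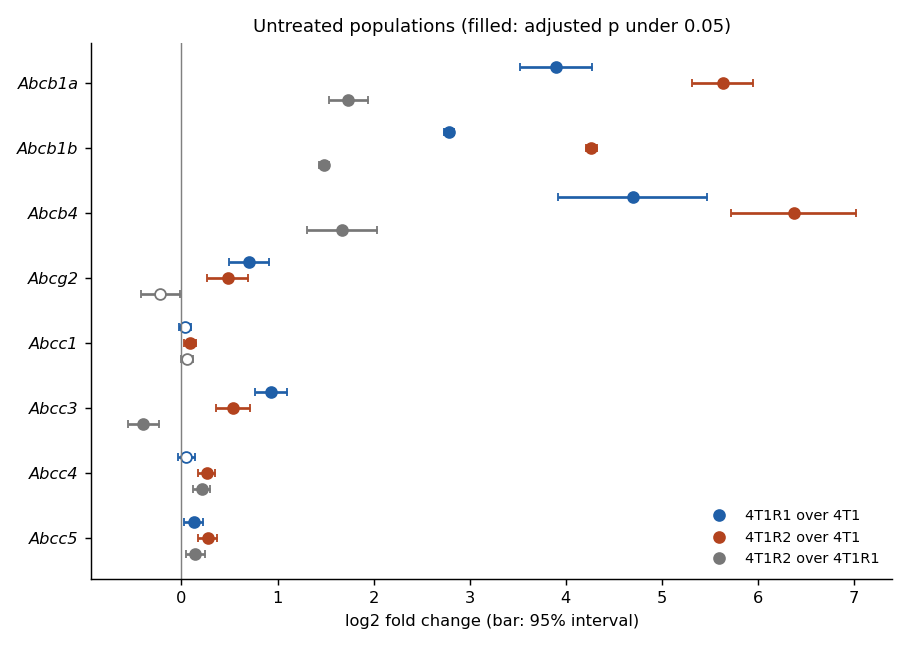
Log2 fold changes of the 8 transporters between untreated populations, with 95% intervals from the fit and filled points for an adjusted P under 0.05. Abcb1a, Abcb1b and Abcb4 lie between 2.78 and 6.37 against 4T1, and the other 5 lie below 1.

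To compare the genes with each other, levels were divided by exon length (CPM per kilobase). In untreated 4T1, Abcb1b (13.8 ± 0.299), Abcc1 (12.7 ± 0.289) and Abcc4 (12.6 ± 0.502; SD, n = 3) led the order, and the ranges of the last pair overlapped. Abcc5 (4.13), Abcc3 (2.17), Abcg2 (0.873), Abcb1a (0.0966) and Abcb4 (0.00958) followed in separate ranges. In 4T1R1 Abcb1b reached 95.2 ± 1.58 and in 4T1R2 266.0 ± 3.55 (SD, n = 3), while the level next to it was 13.0 in 4T1R1, shared by Abcc1 and Abcc4 with overlapping ranges, and 15.1 in 4T1R2 (Abcc4). Abcb1a overlapped Abcg2 in 4T1R1 (1.45 and 1.42) and Abcc5 in 4T1R2 (4.84 and 4.98).

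The sum over the 8 genes was 46.3 ± 0.51 per kilobase in untreated 4T1, 133.0 ± 1.0 in 4T1R1 and 309.6 ± 4.2 in 4T1R2 (SD, n = 3). Abcb1b made up 29.9% ± 0.46 of that sum in untreated 4T1, 71.6% ± 0.73 in 4T1R1 and 85.9% ± 0.13 in 4T1R2 (SD, n = 3). Abcb1a went from 0.208% to 1.09% and 1.56% of the sum, whereas the share of Abcc1 went from 27.3% to 9.74% and 4.36% while its own level differed by at most 1.07-fold. These shares are descriptive and were not tested. With the exon length of coding transcripts in place of all exons, the share of Abcb1b was 32.9%, 74.9% and 88.1%, and Abcc1 then stood above Abcb1b in untreated 4T1 (27.6 against 25.7 per kilobase).

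**Figure D3:**
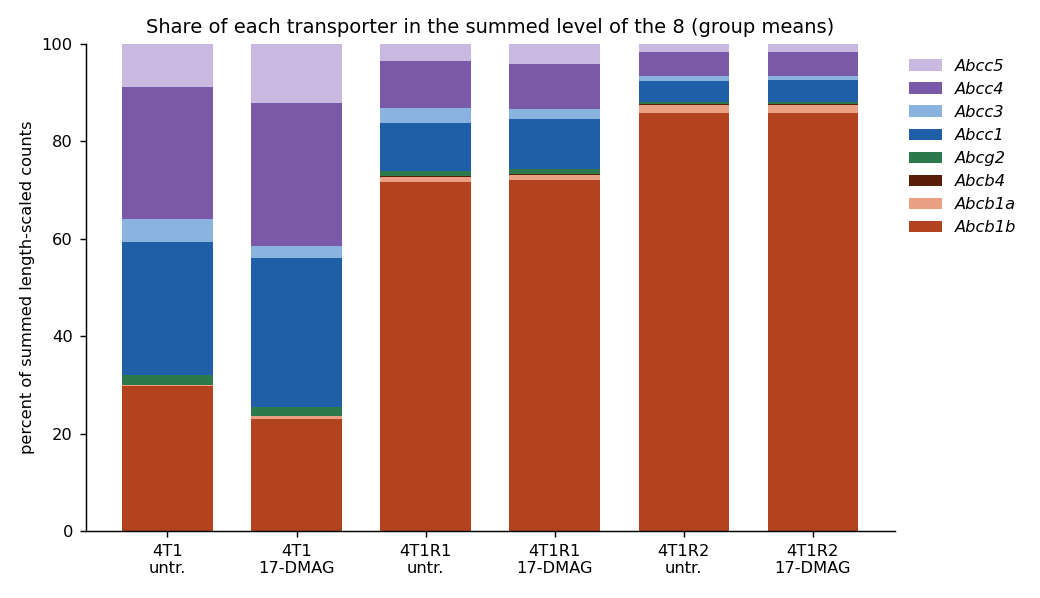
Mean percent that each transporter contributes to the summed length-scaled level of the 8 in each group. Abcb1b makes up 29.9% in untreated 4T1, 71.6% in untreated 4T1R1 and 85.9% in untreated 4T1R2.

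The next question was how each population's transporters responded to 17-DMAG. In 4T1 cells 6 of the 8 were called, against 36.4% of all genes tested, with Abcb1a, Abcc1, Abcc4 and Abcc5 higher and Abcb1b and Abcc3 lower. In 4T1R1 cells 4 were called, against 28.2% of all genes, with Abcb1b, Abcc1 and Abcc5 higher and Abcc3 lower. In 4T1R2 cells 0 were called by edgeR or by DESeq2, against 10.5% of all genes by edgeR, and 3 (Abcc1, Abcc3 and Abcc5) had an unadjusted P under 0.05.

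The P-glycoprotein genes moved in opposite directions in 4T1. Abcb1b fell from between 108.6 and 113.2 untreated to 96.3 and 94.9 after 17-DMAG, with no overlap (log2FC −0.21, SE 0.031, adjusted P = 5.25e-07). The flanking genes Slc25a40, Crot and Tmem243 also fell (log2FC −0.25, −0.32 and −0.47, adjusted P = 0.0159, 0.000924 and 0.0229). Rundc3b had a log2FC of −0.28 and missed the threshold (adjusted P = 0.0615). Abcb1a rose from 0.268, 0.69 and 0.63 to 1.09 and 1.81 (log2FC 1.40, SE 0.28, adjusted P = 8.32e-05), and its highest untreated library stayed below its lowest treated one. The raw Abcb1a counts behind these values were 28, 56 and 52 in the treated libraries, so the level stayed below that of untreated 4T1R1. Abcb4 had 1, 5 and 9 counts after treatment and 6, 2 and 0 before, too few to show a change (log2FC 0.99, 95% interval −0.48 to 2.46, adjusted P = 0.311).

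In 4T1R1, Abcb1b was 764.3, 746.9 and 771.6 untreated and 811.6, 774.6 and 802.5 treated. The ranges were separate, but the log2FC was only 0.07 (SE 0.0237, adjusted P = 0.0348), and the call was lost without the expression filter (adjusted P = 0.0555), with only these groups fitted (adjusted P = 0.0737), and without untreated replicates 1 or 2 or treated replicates 1 or 3 (log2FC 0.05 to 0.07, adjusted P = 0.0539 to 0.176). Abcb1a went from between 7.83 and 8.12 to between 8.54 and 8.86 (log2FC 0.14, 95% interval −0.087 to 0.36, adjusted P = 0.398). In 4T1R2, Abcb1b stayed at 2125.5 ± 28.3 untreated and 2124.5 ± 9.13 treated (SD, n = 3), with a log2FC whose 95% interval ran from −0.048 to 0.047, and Abcb1a had a log2FC of −0.04 (95% interval −0.22 to 0.14, adjusted P = 0.83).

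Abcc5 and Abcc3 moved in opposite directions. Abcc5 rose from 42.7, 44.3 and 45.5 to 66.4 and 67.9 in 4T1 (log2FC 0.60, SE 0.051, adjusted P = 5.88e-13) and from 48.5, 48.2 and 48.0 to 62.1, 63.2 and 61.9 in 4T1R1 (log2FC 0.37, SE 0.0462, adjusted P = 4.17e-08). Both sets were separate, whereas in 4T1R2 the untreated range of 49.9 to 56.0 overlapped the treated range of 55.0 to 58.9 (log2FC 0.10, 95% interval 0.0059 to 0.19, adjusted P = 0.183). Abcc3 fell from 13.4, 12.7 and 10.9 to 7.38 and 7.78 in 4T1 (log2FC −0.71, SE 0.104, adjusted P = 5.5e-07), and from 22.3, 24.3 and 24.1 to 19.4, 17.7 and 15.5 in 4T1R1 (log2FC −0.43, SE 0.0792, adjusted P = 6.1e-05). In 4T1R2 its libraries were also separate, at 17.6, 17.1 and 18.9 untreated and 15.5, 15.2 and 15.6 treated, but the difference missed the threshold (log2FC −0.21, SE 0.0823, adjusted P = 0.0939), and was called with scaling by total counts alone (log2FC −0.26, adjusted P = 0.0341).

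Abcc1 rose to 237.3 and 240.4 in treated 4T1 (log2FC 0.32, SE 0.0331, adjusted P = 1.22e-10) and to between 212.9 and 213.7 in treated 4T1R1 (log2FC 0.13, SE 0.03, adjusted P = 0.00132). Abcc4 rose in treated 4T1 to 95.6 and 97.4 (log2FC 0.27, SE 0.0469, adjusted P = 1.28e-05), within the range of untreated 4T1R2, and its log2FC was −0.05 in 4T1R1 and −0.01 in 4T1R2 (adjusted P = 0.41 and 0.941). Abcg2 was called in none of the populations, with log2FC of 0.09, −0.03 and 0.07 in 4T1, 4T1R1 and 4T1R2 (adjusted P = 0.61, 0.885 and 0.75). Scaling by total counts alone shifted the median of all genes by −0.11 in 4T1 and kept all 6 of these calls there, with log2FC of −0.33 for Abcb1b, 0.21 for Abcc1 and 0.15 for Abcc4. With the same scaling Abcb1b had 0.10 in 4T1R1, and Abcg2 turned sign in 4T1 (−0.026) and 4T1R1 (0.0076).

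**Figure D4:**
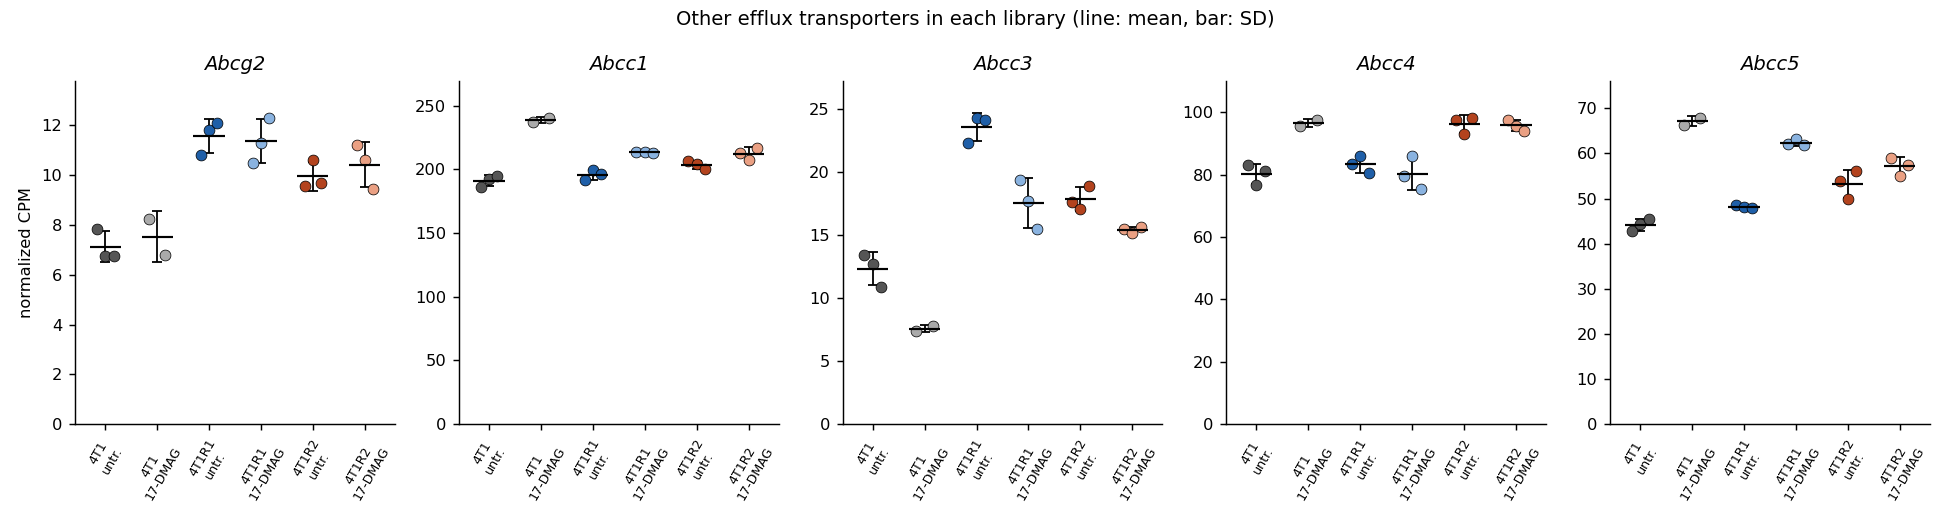
CPM of Abcg2, Abcc1, Abcc3, Abcc4 and Abcc5 in each library, with group means and SD bars on axes that start at 0. Abcc5 and Abcc1 stand higher and Abcc3 lower in treated than in untreated 4T1 and 4T1R1, and Abcg2 and Abcc3 stand higher in the untreated selected populations than in untreated 4T1.

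Whether the responses differed between populations was tested directly as an interaction, with untreated and treated 4T1 shared by both tests. The response in 4T1R1 differed from that in 4T1 for 5 of 8 members, against 18.2% of all genes, and the response in 4T1R2 for 6 of 8, against 17.8%. The Abcb1a response was smaller by 1.27 on the log2 scale in 4T1R1 (adjusted P = 0.00193) and by 1.45 in 4T1R2 (adjusted P = 0.000294). The former rested on treated 4T1 replicate 3, without which it was −0.90 and treated 4T1 had no replicates. The Abcb1b response was higher by 0.28 in 4T1R1 and by 0.21 in 4T1R2 (adjusted P = 1.03e-06 and 8.01e-05). The flanking genes Slc25a40, Rundc3b, Crot and Tmem243 differed by 0.56, 0.33, 0.24 and 0.37 in 4T1R1, with only Slc25a40 called (adjusted P = 3.48e-05). In 4T1R2 these genes differed by 0.29, 0.24, 0.27 and 0.36, with Slc25a40 and Crot called (adjusted P = 0.0299 and 0.0271). Abcc4 responded less in both selected populations, with differences of −0.32 and −0.27 (adjusted P = 0.000268 and 0.00135). With scaling by total counts alone the 4T1R1 differences were 0.43 for Abcb1b and −0.17 for Abcc4, both still called.

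Abcc1 and Abcc5 also responded less in the selected populations, with differences of −0.20 and −0.23 in 4T1R1 (adjusted P = 0.00117 and 0.0139) and of −0.26 and −0.50 in 4T1R2 (adjusted P = 2.15e-05 and 3.44e-07). With scaling by total counts alone, which shifted the median of all genes by 0.15, the differences in 4T1R1 were smaller and no longer called. They were −0.05 for Abcc1 and −0.08 for Abcc5 (adjusted P = 0.515 and 0.424). The Abcc5 difference in 4T1R1 also rested on treated 4T1 replicate 3, without which treated 4T1 had no replicates. The fall of Abcc3 was weaker in 4T1R2 than in 4T1 by 0.49 (adjusted P = 0.00669). The Abcc3 difference in 4T1R1 was 0.28 (95% interval 0.014 to 0.55, adjusted P = 0.145), and was called with total counts alone (0.43, adjusted P = 0.0112). For Abcg2 the intervals were −0.43 to 0.20 in 4T1R1 and −0.34 to 0.29 in 4T1R2, and for Abcb4 they were wide, from −2.84 to 0.23 in 4T1R1 and from −2.61 to 0.40 in 4T1R2, and neither gene passed the threshold.

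**Figure D5:**
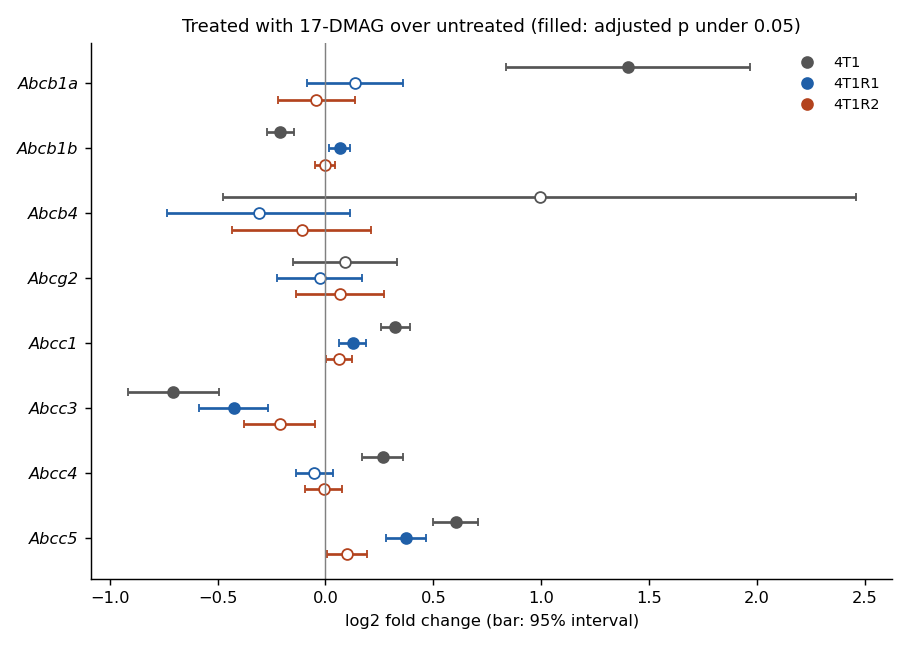
Log2 fold changes of the 8 transporters after 17-DMAG in 4T1, 4T1R1 and 4T1R2, with 95% intervals and filled points for an adjusted P under 0.05. Abcb1a in 4T1 has the largest called change (1.40), and in 4T1R2 no member is filled.

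Over the 17 libraries, levels of Abcb1a, Abcb1b and Abcb4 on the log2 scale correlated with one another at r of 0.975 to 0.984, and Abcc1 with Abcc5 at 0.917. These values are descriptions, since the libraries share 6 group means. The genes most like Abcb1b by Pearson r were Rundc3b (0.999), Crot (0.998) and Sri (0.998), all on chromosome 5. Those for Abcb1a were Dbf4 (0.993), Klk8 (0.991) and Fam21 (0.99), and those for Abcb4 were Samd4 (0.99), Fam213a (0.989) and Dbf4 (0.988). Dbf4 also lies on chromosome 5 (8396973 to 8422716), Klk8 lies on 7, and Samd4 and Fam213a lie on 14. Fam21 was not matched to a position. Abcg2 was most like Tet2 (0.956), Zfp429 (0.953) and Klhdc10 (0.945), and Abcc3 most like Dusp16 (0.977), Bcl3 (0.975) and Zfyve1 (0.971). Abcc1 was nearest to Bag3 (0.978), Gars (0.966) and Osgin1 (0.961), Abcc5 to Cpne1 (0.961), Fam84b (0.949) and Bag3 (0.945), and Abcc4 to Pgd (0.948), Eif3h (0.935) and Nsa2 (0.933).

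Of 45 other ABC genes in the table, 24 were tested, and the median log2FC was 0.09 in untreated 4T1R1 (9 higher, 9 lower) and −0.07 in untreated 4T1R2 (6 higher, 9 lower). Of all genes tested, 52.7% were called in 4T1R1 and 52.4% in 4T1R2. Among those of the plasma membrane, 4 of 14 were tested. Abcc10, which encodes another multidrug resistance-associated protein, was higher in both selected populations (log2FC 1.05 and 0.91, adjusted P = 3.99e-10 and 2.13e-08). Abcg1, a cholesterol exporter, was higher in 4T1R1 (log2FC 1.47, adjusted P = 4.3e-05) and lower in 4T1R2 (log2FC −1.07, adjusted P = 0.0162), at no more than 2.39 CPM in any untreated group. Abcb5 and Abcc2, other drug exporters, never exceeded 0.202 CPM and were not tested.

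Among transporters of lipids and peptides, Tap1, a subunit of the antigenic peptide transporter, was 2.98-fold higher in 4T1R1 (adjusted P = 6.2e-16). Abca8b, an ABCA lipid transporter, went from 0.069 CPM in untreated 4T1 to 1.34 in 4T1R1 and 0.503 in 4T1R2 (fitted log2FC 4.26 and 2.86, adjusted P = 8.93e-08 and 0.000589). Abca8a had no count in untreated 4T1 and was at least 11.3-fold higher in 4T1R1, against a floor of 3 counts over the group. No 4T1 library reached the filter minimum of 0.323 CPM for Abca8a or Abca8b, so both were tested only because of their level in selected populations, and their inclusion is not evidence of a change. After 17-DMAG the 24 other ABC genes had median log2FC of −0.04, −0.03 and −0.04 in 4T1, 4T1R1 and 4T1R2, with 3, 2 and 0 higher and 4, 5 and 1 lower. The shares of all genes called in these responses were 36.4%, 28.2% and 10.5%.

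Of 22 tested transcription factors and their regulators known to act on efflux genes, 11 were higher and 4 lower in each untreated selected population. The shares of all genes called were 52.7% in 4T1R1 and 52.4% in 4T1R2. Foxo3, a forkhead factor, was the only one past 2-fold, with log2FC of 1.24 in 4T1R1 and 1.18 in 4T1R2 (adjusted P = 7.22e-18 and 5.28e-17). After 17-DMAG in 4T1, 6 of the 22 were higher and 10 lower, against 36.4% of all genes tested called in either direction. Egr1, an immediate-early factor, fell from 19.9 to 2.74 CPM (log2FC −2.87, adjusted P = 4.03e-20), and Jun, an AP-1 subunit, from 121.5 to 51.3 (log2FC −1.24, adjusted P = 2.98e-20). Nfe2l2, which encodes NRF2, and Tcf7l2, a Wnt pathway factor, fell with log2FC of −0.77 and −0.66 (adjusted P = 3.45e-17 and 7.86e-08). The counts called were 3 higher and 9 lower in 4T1R1 and 1 higher and 6 lower in 4T1R2, and none of these reached 1.5-fold. Of all genes, 28.2% were called in the response of 4T1R1 and 10.5% in that of 4T1R2.

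Of 11 tested uptake and other export carriers, 8 were higher and 2 lower in untreated 4T1R1, and 3 were higher and 1 lower in 4T1R2. The shares of all genes called in these comparisons were 52.7% and 52.4%. The organic anion carriers Slco5a1 and Slco4a1 and the organic cation carrier-like Slc22a18 met the size rule: Slc22a18 had a log2FC of 1.29 in untreated 4T1R1 (adjusted P = 0.000269), at 2.06 CPM against 0.843 in untreated 4T1, and Slco4a1 fell after 17-DMAG in 4T1 (log2FC −0.77, adjusted P = 1.68e-14). Slco5a1 was at 0.668 CPM in untreated 4T1R1 and 0.2 in untreated 4T1 (fitted log2FC 1.74, adjusted P = 0.00784), and since it reached the filter minimum only in 4T1R1 libraries, its inclusion is not evidence of a change. After 17-DMAG in 4T1, 1 carrier was higher and 3 were lower, in treated 4T1R1 1 and 2, and in treated 4T1R2 edgeR called 0, with 4 at an unadjusted P under 0.05. Of 7 genes listed as membrane scaffolds, whose effect on the pumps was not tested, 1 was higher and 3 lower in untreated 4T1R1. In untreated 4T1R2, 2 were higher and 3 lower. Cav1, the caveolin that coats caveolae, was higher in both selected populations (log2FC 1.57 and 1.16, adjusted P = 3.36e-28 and 3.06e-23). After 17-DMAG, 1 scaffold was higher and 2 lower in 4T1, 2 and 4 in 4T1R1, and 1 and 0 in 4T1R2. Of all genes tested, 36.4%, 28.2% and 10.5% were called in the responses of 4T1, 4T1R1 and 4T1R2. These shares, and those given above for the untreated populations, apply to the carriers and the scaffolds alike.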

How the data were processed

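RNA of the 18 libraries was depleted of ribosomal RNA and sequenced; per the labels and the submitters' processing notes, bcl2fastq 2.20, STAR and featureCounts (Subread 1.6.2) were used. The authors deposited whole-number read counts per gene symbol, without normalization; the use of strand and of reads with several matches is not given in the sources used here. Members and gene lists were chosen with earlier results of these data known.

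Libraries of a group that differed by less than the sampling noise were averaged. Counts were scaled by TMM, filtered by filterByExpr, which kept all 8 members (a minimum of 10 counts at the median depth, or 0.323 CPM), and fitted as 6 groups over 17 libraries with edgeR 4.0.16 in R 4.3.3. The quasi-likelihood test was two-sided, with Benjamini-Hochberg adjustment over 13507 genes and a threshold of 0.05. Levels per kilobase used the union of GENCODE vM21 exons, and 23376 symbols matched that annotation. Correlations used log2 of normalized CPM plus 1. The code was tested on simulated data.

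From the other gene lists, genes called with at least 2-fold in an untreated selected population against 4T1, or 1.5-fold in a response, were named, as were the 3 genes most like each member and the counted protein-coding genes beside the chromosome 5 run. A gene that this rule names is not reported here. Alternatives were RLE and total-count scaling, TMM without Rn45s, other filters, DESeq2 1.42.0, the compared groups alone, 18 separate libraries, the replicate number as a block, and each library left out. Replicates are biological by the series description. Protein sequences and the study's other experiments were not analysed here.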

Additional observations from a re-analysis of the deposited data

Results flagged for a closer look

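These results were flagged because the response to 17-DMAG differed between a selected population and 4T1 by the interaction term of the edgeR fit, with the 4T1 libraries shared by both sets of tests. In 4T1R1 minus 4T1, the differences on the log2 scale were −1.27 for Abcb1a, 0.28 for Abcb1b, −0.20 for Abcc1, −0.32 for Abcc4 and −0.23 for Abcc5. In 4T1R2 minus 4T1, they were −1.45 for Abcb1a, 0.21 for Abcb1b, −0.26 for Abcc1, 0.49 for Abcc3, −0.27 for Abcc4 and −0.50 for Abcc5. Treated 4T1 counts as n = 2, and the Abcb1a values rest on 8 to 56 counts in each 4T1 library.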

How the results depend on the processing

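The members' values were recomputed under each alternative. Apart from the leave-one-out fits, 547 of 559 values kept their direction and their side of the threshold, and of the leave-one-out values 454 of 480 did.

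With total counts alone, 1 member was called in the response of 4T1R2 (Abcc3). Leaving out each library gave at most 5 members called in the response difference of 4T1R1. Without treated 4T1 replicate 3 that group had no replicates, so the calls of that fit are not given. With the replicate number as a block, 8 members were called in untreated 4T1R2 and 6 in untreated 4T1R1, and no call changed. Over the 15 same-numbered pairs the correlation of deviations ran from −0.047 to 0.092. Sampling noise in low counts weakens such correlations, so they cannot exclude that samples with the same number were paired. A minimum of 10 counts in every library removed Abcb1a and Abcb4, so they have no value there. It left 4 members called in untreated 4T1R1 and 6 in 4T1R2. Shares of all genes called under these alternatives are not given here. In the fit reported above, 52.7% of all genes were called in untreated 4T1R1 and 52.4% in untreated 4T1R2. The shares were 10.5% in the response of 4T1R2 and 18.2% in the response difference of 4T1R1.

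The share of Abcb1b by counts, not scaled by length, was 24.8% in untreated and 18.6% in treated 4T1, 67.1% and 66.8% in 4T1R1, and 83.7% and 83.4% in 4T1R2. With the exon length of coding transcripts, chosen after seeing the data, it was 32.9% and 25.4%, 74.9% and 74.8%, and 88.1% and 87.9%, so the construction of the length moves it.

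Values that changed sign were all uncalled. With total counts alone, Abcg2 was −0.026 in the response of 4T1 and 0.0076 in that of 4T1R1, and its response differences were 0.034 (4T1R1) and 0.048 (4T1R2). Abcb1b in the response of 4T1R2 was 0.0026 without Rn45s and 0.0043 without a filter. Leaving out each library gave Abcg2 −0.084 to 0.028 in the response of 4T1R1 and −0.14 to 0.043 in the response difference of 4T1R2, and Abcb4 −0.18 to 2.31 in the response of 4T1 and −2.42 to 0.069 in the response difference of 4T1R2, with sign turned by treated 4T1 replicate 3. In the response of 4T1R2 it gave Abcc4 −0.032 to 0.0097, Abcb1a −0.11 to 0.038 and Abcb1b −0.0077 to 0.014.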
